A study of Homo sapiens with 4 samples.

Results

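The zinc finger genes of human chromosome 19 described here are the gene names made of ZNF, a number and at most 1 further letter whose listed position is on chromosome 19. By this rule 167 of the 13300 gene names in the RIP-seq data were members, with 388 of the 34975 listed transcripts. RNA immunoprecipitation sequencing (RIP-seq) reads the RNA that is pulled out of a lysate together with the protein an antibody binds. The 4 libraries were made from cells of the highly metastatic human liver cancer line HCCLM3 (hepatocellular carcinoma), and no label names a further treatment. For 2 libraries the antibody was directed against KIAA1429 (KIAA1429 RIP, replicates 1 and 2), a subunit of the complex that writes N6-methyladenosine (m6A) into RNA, and for 2 libraries it was normal IgG (IgG RIP, replicates 1 and 2), which gives the background of RNA that sticks without a specific antibody. No label says that replicates came from separate cultures, so the p-values below measure only the spread between these libraries, which may be technical.

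Zinc finger proteins of the C2H2 type read DNA with an array of small domains, each folded around a zinc ion and joined to the next by a short conserved linker. Many of the genes lie in clusters on chromosome 19 that grew by tandem duplication in primates, and many of their proteins also carry a KRAB domain, which recruits the corepressor TRIM28 and the histone methyltransferase SETDB1 to silence retrotransposons and other targets. Their messenger RNAs are usually of low abundance, as is common for transcription factors.

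The coding sequence of the linker is a feature that most members share although the rule did not use it. In the coding sequences of GRCh37 (GENCODE annotation), the motif ACNGGNGANAANCC, searched on the coding strand and in the reading frame, was present in 136 of the 165 members whose coding sequence could be read in full (82.4%), at 923 places in all. In the coding sequence of the most abundant listed transcript of each gene it was present in 73.2% of 153 members, 61.1% of 190 ZNF genes on other chromosomes and 0.784% of 10465 other gene names. The commonest spelling, ACTGGAGAGAAACC, made up 272 of the 922 sites with 30 coding bases in 1 exon and occurred in 81 members. The 30-base stretches printed here are examples found by searching for the motif, so its fixed letters are the same in all of them by construction. All but that of ZNF460 carry the commonest spelling. The linker is in capitals and each stretch is read 5′ to 3′ on the strand of its gene, from coding exons of GRCh37: ZNF121 (chr19:9677185-9677214, minus strand), ZNF146 (chr19:36727869-36727898, plus strand), ZNF460 (chr19:57802556-57802585, plus strand), ZNF91 (chr19:23544895-23544924, minus strand), ZNF180 (chr19:44981467-44981496, minus strand) and ZNF568 (chr19:37441032-37441061, plus strand).
ZNF121: gaattcatACTGGAGAGAAACCttatcaat
ZNF146: acattcacACTGGAGAGAAACCctatgaat
ZNF460: tcatccatACTGGGGAGAAGCCctataaat
ZNF91: ggatacacACTGGAGAGAAACCctacaaat
ZNF180: gaactcatACTGGAGAGAAACCttacaggt
ZNF568: gaattcacACTGGAGAGAAACCctatgaat

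Some members are so alike that a read can belong to either of a pair. In the most abundant listed transcripts of 161 members, 70 held no 50-base word that also occurs in a transcript of another ZNF gene, and in 12 members such words made up more than 10%. The highest shares were 36.8% in ZNF587B, 36.1% in ZNF443 and 35.6% in ZNF417. The values of these members are uncertain where the assignment of reads could split them. Of 2 such pairs, stretches of 30 coding bases that are the same in both genes of the pair are printed to show this likeness: ZNF419 (chr19:58002870-58002899, plus strand) and ZNF773 (chr19:58016059-58016088, plus strand), then ZNF417 (chr19:58423524-58423553, minus strand) and ZNF587 (chr19:58367476-58367505, plus strand), all in coding exons of GRCh37.
ZNF419: acttctcccaggaggaatggagattgcttg
ZNF773: acttctcccaggaggaatggagattgcttg
ZNF417: gcactgtgacctttgaagatgtggctgtga
ZNF587: gcactgtgacctttgaagatgtggctgtga

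Levels are given as FPKM (fragments counted relative to the length of the transcript and to all mapped fragments of the library, so that long and short genes can be compared), summed over the listed transcripts of a gene name (the gene total). Only FPKM was deposited per transcript in these files, so the depth of the libraries is unknown and no counting interval is given. The FPKM of all gene names summed to 295573 and 315446 in IgG RIP and to 337041 and 340300 in KIAA1429 RIP. The members together held 928.5 and 817.7 FPKM in IgG RIP against 835.6 and 774.4 FPKM in KIAA1429 RIP. The mean of the IgG RIP sums was 873 ± 78.3 FPKM (SD, n = 2) and that of the KIAA1429 RIP sums 805 ± 43.3 FPKM (SD, n = 2). The groups overlapped, and the log2 ratio of the group means, KIAA1429 RIP over IgG RIP, was -0.12 with an error of 0.15 (the root of the summed variances of the log2 values in the groups). As a share of each library's FPKM, the members made up 0.314% and 0.259% in IgG RIP, compared with 0.248% and 0.228% in KIAA1429 RIP, so that the values of this share did not overlap between groups. The log2 ratio of the share was -0.27 with an error of 0.21, while the FPKM sum of all gene names was higher in KIAA1429 RIP by a log2 ratio of 0.15.

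Genes of the hepatocyte lineage were present in all libraries of the HCCLM3 cells. All 14 hepatocyte markers examined were listed, with summed levels of 1820 and 1556 FPKM in IgG RIP against 1839 and 1746 FPKM in KIAA1429 RIP. Most of these sums came from KRT18 and KRT8, keratins of simple epithelia in general. KRT18 was at 879 and 820 FPKM in IgG RIP, compared with 1048 and 1006 FPKM in KIAA1429 RIP. AFP, the fetal serum protein of hepatocellular carcinoma, was at 121 and 128 FPKM in IgG RIP against 99.1 and 115 FPKM in KIAA1429 RIP. The regulators of the lineage were low, with at most 1.11 FPKM for HNF4A and 1.74 FPKM for FOXA2 in any library. Of 7 markers of other cells, 3 were listed (LYZ, COL3A1 and VIM), with sums of 940 and 1007 FPKM in IgG RIP against 681 and 1107 FPKM in KIAA1429 RIP. VIM, a mesenchymal filament protein that invasive carcinoma lines also make, supplied most of these sums (659 to 1084 FPKM).

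Most members were low. Of the 167 members, 142 had 4-library means that reached 1 FPKM and were tested, and the other 25 had means from 0.277 to 0.945 FPKM. The tested members are those that passed this filter, not all members. Their median level was 4.23 and 2.81 FPKM in IgG RIP, compared with 3.67 and 3.27 FPKM in KIAA1429 RIP. Over all 11361 gene totals tested the medians were 9.08 and 7.91 FPKM in IgG RIP against 8.76 and 8.37 FPKM in KIAA1429 RIP. The highest and the lowest of the member medians were both in IgG RIP. IgG RIP replicate 2 also had the most members listed at 0, with 29 of 167, against 15 in IgG RIP replicate 1, and 13 and 18 in KIAA1429 RIP replicates 1 and 2. Between 32.0% and 41.8% of the members' transcripts were listed at 0 in a library, compared with 26.6% to 32.2% of all transcripts. Only 125 of the 388 member transcripts (32.2%) were above 0 in all libraries, against 44.5% of all transcripts. Across the tested members, Spearman's rho of the gene totals was 0.67 for the replicates of IgG RIP, 0.69 for those of KIAA1429 RIP and 0.67 to 0.72 for libraries of different groups, so libraries of a group were no more alike in these genes than libraries of different groups. These correlations run across 142 genes, which are not independent replicates, and across all 11361 gene totals they were 0.83 to 0.88.

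A few members carried much of the signal. The 10 with the highest mean level held 30.3% of the members' FPKM, and the 22 with a mean of at least 10 FPKM held 49.2%. ZNF580, a short gene with 3 fingers and no linker motif, had 32.1 and 34.8 FPKM in IgG RIP against 23.6 and 35.9 FPKM in KIAA1429 RIP. ZNF581, its neighbour on the plus strand, had 16.98 and 41.76 FPKM in IgG RIP against 18.7 and 26.4 FPKM in KIAA1429 RIP. In both genes the IgG RIP values lay within or around the KIAA1429 RIP values, and 9.39% of the 50-base words of ZNF580 also occur in transcripts annotated to ZNF581. ZNF121, which binds the MYC protein, had 33.7 and 26.2 FPKM in IgG RIP, compared with 33.4 and 25.9 FPKM in KIAA1429 RIP. ZNF146, a protein made almost entirely of fingers, had 26.5 and 17.9 FPKM in IgG RIP against 35.7 and 24.6 FPKM in KIAA1429 RIP. For ZNF121 the replicates of a group differed far more than the group means, and for ZNF146 the lower KIAA1429 RIP value lay below the higher IgG RIP value. ZNF428 had 23.8 and 23.7 FPKM in IgG RIP, and its KIAA1429 RIP values of 17.8 and 29.8 FPKM lay on either side. ZNF772 had 28.3 and 15.7 FPKM in IgG RIP against 21.7 and 16.5 FPKM in KIAA1429 RIP. ZNF562 had 20.5 and 19.6 FPKM in IgG RIP, compared with 22.8 and 15.2 FPKM in KIAA1429 RIP. In each of these 3 genes the groups overlapped.

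For the other 3 of the 10, both KIAA1429 RIP values lay below both IgG RIP values. Over all gene totals with a mean of at least 10 FPKM, 14.3% lay below in this way and 18.0% above. ZNF460 had 40.7 and 31.3 FPKM in IgG RIP against 25.50 and 19.98 FPKM in KIAA1429 RIP. ZNF787 had 29.99 and 35.49 FPKM in IgG RIP against 25.5 and 26.1 FPKM in KIAA1429 RIP. ZNF579 had 22.04 and 22.58 FPKM in IgG RIP, compared with 12.8 and 14.8 FPKM in KIAA1429 RIP. The log2 ratio of group means was -0.66 with an error of 0.37 for ZNF460, -0.34 with an error of 0.17 for ZNF787 and -0.69 with an error of 0.15 for ZNF579. Each of these ratios is larger than the spread between replicates, but the limma test described next gave an adjusted p of 0.998 for each.

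**Figure D1:**
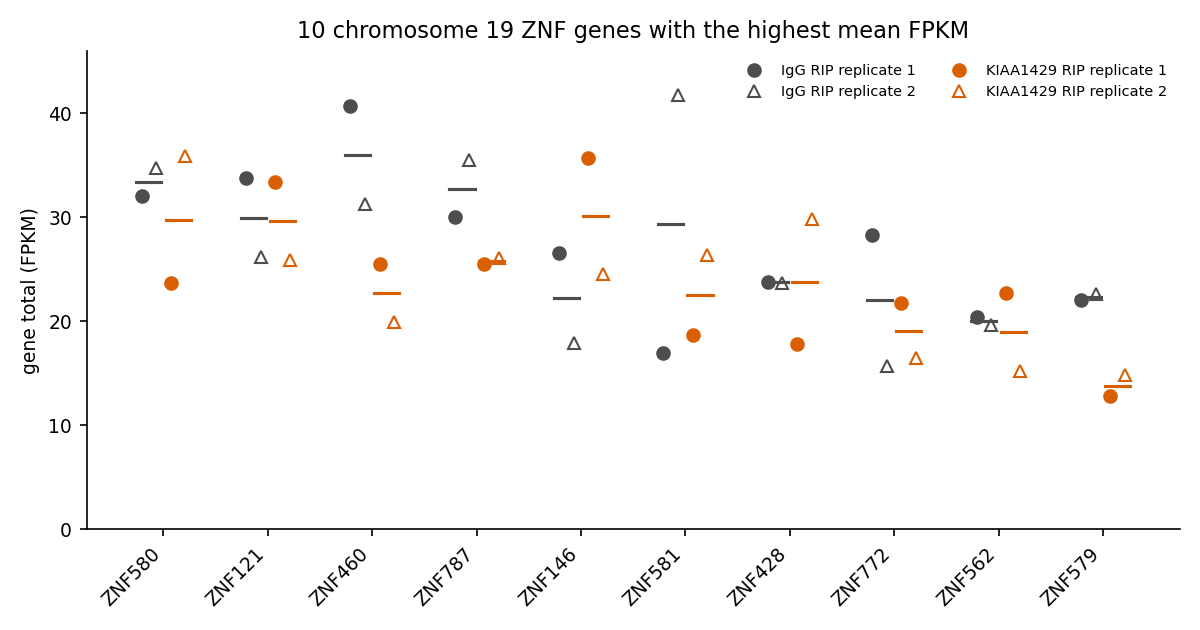
Gene totals in FPKM (vertical axis) of the 10 members with the highest mean level, ordered by that mean. Each point is a library (grey, IgG RIP; orange, KIAA1429 RIP; filled circles, replicate 1; open triangles, replicate 2) and each short line the mean of a group. Only ZNF460, ZNF787 and ZNF579 have all KIAA1429 RIP points below the IgG RIP points, as do 14.3% of all gene totals with a mean of at least 10 FPKM.

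To ask which members were enriched with KIAA1429, the gene totals were compared between groups on the scale log2(FPKM + 1), where differences of low genes come out too small, by limma with a trend of the variance on the level. The test was two-sided and fitted on all 11361 gene totals, with Benjamini-Hochberg adjustment over all of them. A gene was called higher or lower at a log2 fold change beyond 1 in either direction and an adjusted p under 0.05, thresholds that the methods of the study give for enrichment. Of the 142 members tested, 0 were called higher and 0 lower, as were 0% of all gene totals in either direction. The study itself, with a test on read counts, did report transcripts enriched in KIAA1429 RIP. That test could not be repeated on FPKM, so the absence of calls by limma does not show that no RNA was enriched. The lowest adjusted p from limma among the members was 0.998, and among all gene totals it was 0.515. At an unadjusted p under 0.05, limma counted 4 members (2.82%) against 4.59% of all gene totals. With a log2 fold change beyond 1 as well, 1 member was higher, against 2.34% of all gene totals, and 2 were lower, against 1.19%. Of the 2 lower, ZNF530 was listed at 0 in both KIAA1429 RIP libraries and passed the filter through its IgG RIP values alone. Its place in this count was therefore partly set by the filter.

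The 4 members with the lowest unadjusted p were ZNF180, ZNF530, ZNF865 and ZNF568. ZNF180 had 1.43 and 1.55 FPKM in IgG RIP against 6.93 and 4.96 FPKM in KIAA1429 RIP. Both KIAA1429 RIP values were higher, by 3.997-fold in the group means, with a limma log2 fold change of 1.47 (SE 0.50, adjusted p 0.998). This difference was not shared by its transcripts. The transcript with the longest coding sequence, ENST00000221327, was at 1.43 and 1.55 FPKM in IgG RIP and at 0.271 and 0.266 FPKM in KIAA1429 RIP, that is, lower in KIAA1429 RIP. ENST00000586637 was listed at 0 in both IgG RIP libraries and at 2.97 and 4.70 FPKM in KIAA1429 RIP, and ENST00000592529 was above 0 only in KIAA1429 RIP replicate 1, at 3.69 FPKM. The higher gene total of ZNF180 therefore rested on transcripts listed at 0 in IgG RIP.

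ZNF568, whose mouse counterpart silences a placental transcript of Igf2, had 4.30 and 4.55 FPKM in IgG RIP against 1.60 and 1.04 FPKM in KIAA1429 RIP. Its group means were 3.36-fold apart, lower in KIAA1429 RIP, with a limma log2 fold change of -1.24 (SE 0.52, adjusted p 0.998). None of its 5 listed transcripts was above 0 in all libraries. ZNF530 had 1.601 and 3.001 FPKM in IgG RIP and was listed at 0 in both KIAA1429 RIP libraries, so no fold is given. Its IgG RIP values came from a different transcript in each replicate. ZNF865, named after its values were seen, had 15.8 and 18.2 FPKM in IgG RIP, compared with 7.74 and 9.90 FPKM in KIAA1429 RIP, from its only listed transcript. Its limma log2 fold change was -0.88 (SE 0.35, adjusted p 0.998), the largest difference to the lower side among the 22 members with a mean of at least 10 FPKM.

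**Figure D2:**
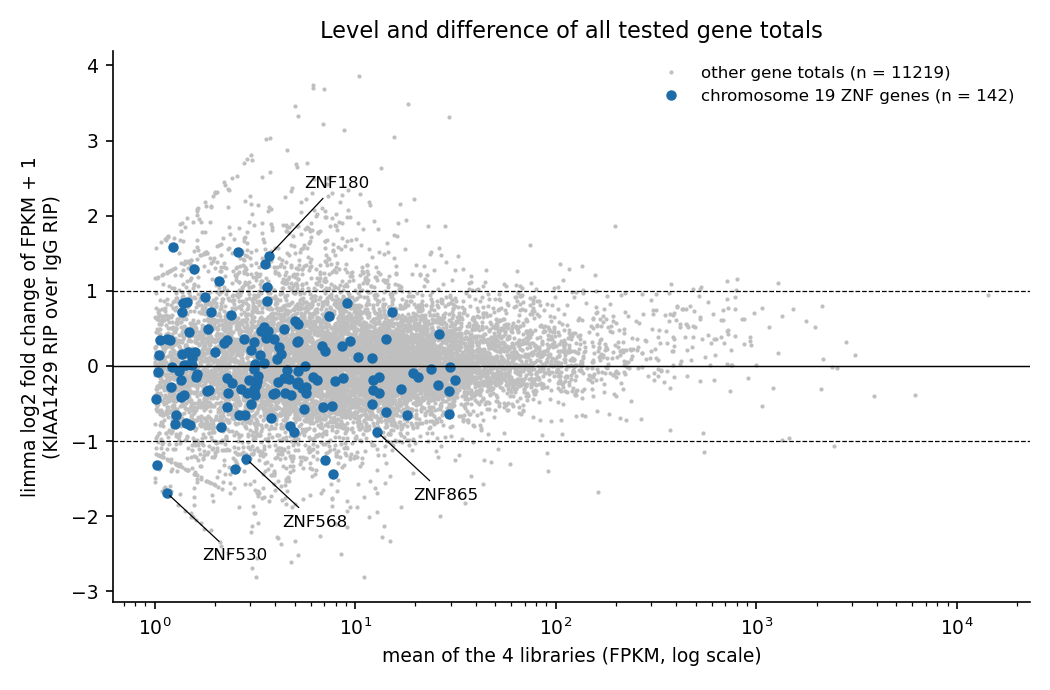
Mean level over the 4 libraries (horizontal axis, FPKM, log scale) against the limma log2 fold change of FPKM + 1, KIAA1429 RIP over IgG RIP (vertical axis), for the 142 members tested (blue) and the other gene totals (grey). Dashed lines mark a log2 fold change of 1 and -1, and names mark the 4 members with an unadjusted p under 0.05. The members sit within the cloud of the other genes, mostly at low levels.

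Without a pseudocount, 12 of the 142 members (8.45%) had a KIAA1429 RIP mean at least 2-fold above the IgG RIP mean, against 7.58% of all gene totals, and 12 (8.45%) were at least 2-fold lower, against 6.14%. Of the 12 higher, 1 was listed at 0 in both IgG RIP libraries, and of the 12 lower, 1 in both KIAA1429 RIP libraries (73 and 60 over all gene totals). Such genes passed the filter through the other group alone. The counts of members at least 2-fold apart depended on single libraries. Without IgG RIP replicate 1 the count of members at least 2-fold higher was 32 (22.5%, against 16.2% of all gene totals), and without KIAA1429 RIP replicate 1 the count at least 2-fold lower was 27 (19.01%, against 11.7%). A case of this kind is ZNF573, named after its values were seen, which had 24.7 FPKM in IgG RIP replicate 1, was listed at 0 in IgG RIP replicate 2 and KIAA1429 RIP replicate 1, and had 3.55 FPKM in KIAA1429 RIP replicate 2.

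Counting only the order of the libraries, both KIAA1429 RIP values lay above both IgG RIP values in 15 members (10.6%), where the share over all gene totals was 16.6%, and below them in 29 members (20.4%), where it was 15.2%. ZNF genes on other chromosomes gave a like split, with 20 above (10.7%) and 40 below (21.4%) of 187 tested. The other genes of chromosome 19 had 119 above (18.1%) and 99 below (15.1%) of 656 tested. More genes lay below than above among ZNF genes on chromosome 19 and elsewhere, and more lay above than below among the other genes of the chromosome, which describes counts and was not tested.

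Among the members that lay above, the 5 with the largest limma log2 fold changes were ZNF419, ZNF383, ZNF180, ZNF625 and ZNF77. ZNF419 was listed at 0 in both IgG RIP libraries and had 0.710 and 4.21 FPKM in KIAA1429 RIP. ZNF383 had 2.17 FPKM and 0 in IgG RIP against 4.23 and 3.99 FPKM in KIAA1429 RIP. In ZNF383 the KIAA1429 RIP replicates were close to each other, although a different transcript supplied most of the total in each. ZNF625 had 3.22 and 0.401 FPKM in IgG RIP against 5.83 and 4.68 FPKM in KIAA1429 RIP. ZNF77 had 0.980 FPKM and 0 in IgG RIP, compared with 1.42 and 3.91 FPKM in KIAA1429 RIP. Of these 5, only ZNF180 and ZNF625 were above 0 in all libraries. ZNF419 shares 23.5% of the 50-base words of its most abundant listed transcript with ZNF773, the neighbour printed beside it above, and ZNF773, named for this likeness, had 3.45 and 2.57 FPKM in IgG RIP against 5.19 and 2.14 FPKM in KIAA1429 RIP.

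Among the members that lay below, the 5 with the largest limma log2 fold changes were ZNF530, ZNF586, ZNF222, ZNF613 and ZNF568. ZNF586 had 9.02 and 13.5 FPKM in IgG RIP against 1.47 and 7.07 FPKM in KIAA1429 RIP, with a log2 ratio of group means of -1.40 and an error of 1.66. ZNF222 had 4.54 and 3.14 FPKM in IgG RIP, compared with 2.44 FPKM and 0 in KIAA1429 RIP. ZNF613 had 1.69 and 2.09 FPKM in IgG RIP against 0.335 FPKM and 0 in KIAA1429 RIP. For ZNF586 the spread between replicates was larger than the difference between groups. The other 10 members above had limma log2 fold changes from 0.35 to 1.05. Among the members below, 20 that the naming rule does not cover, ZNF865 included, had limma log2 fold changes from -0.88 to -0.16.

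The median log2 ratio of group means was -0.15 over the 142 members and 0.0088 over all gene totals, and 80 members (56.3%) had a ratio below 1, against 49.4% of all gene totals, while 62 (43.7%) had a ratio above 1, against 50.6%. The direction of the members' median was the same after median scaling (-0.16) and after quantile normalization (-0.17). It was nearer 0 with protein-coding transcripts only (-0.087), over members with under 1% of shared words (-0.061) and without a filter (-0.042, against -0.0034 over all gene totals). Over the 40 tested members with at least 1% of shared words it was -0.25, which turned to 0.14 without IgG RIP replicate 1. The median over the 142 members turned to 0.11 without IgG RIP replicate 1, and then stood near the median of all gene totals (0.14). Set directly against each other, IgG RIP replicate 2 was below IgG RIP replicate 1 by a median log2 ratio of -0.38 over the members and -0.18 over all gene totals. Pairs of libraries from different groups had member medians from -0.41 (KIAA1429 RIP replicate 2 over IgG RIP replicate 1) to 0.22 (KIAA1429 RIP replicate 1 over IgG RIP replicate 2). ZNF genes on other chromosomes had a median of -0.11, which became 0.16 without IgG RIP replicate 1. For the other genes of chromosome 19 the median was 0.0097, and it turned to -0.054 without KIAA1429 RIP replicate 2.

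The median of the most abundant members, though not each of those members, kept its sign without any single library. For the 22 members with a mean of at least 10 FPKM the median log2 ratio was -0.21, with 16 of 22 lower in KIAA1429 RIP, and it ran from -0.36 to -0.14 when each library was left out. Over the 5167 gene totals at that level the median was 0.033, and 47.1% had a ratio below 1. In this group 6 members lay below in both KIAA1429 RIP libraries (27.3%, against 14.3% of gene totals at that level) and 2 lay above (9.09%, against 18.0%). The 2 above were ZNF805 and ZNF561, named after their values were seen. ZNF805 had 12.3 and 10.3 FPKM in IgG RIP against 17.2 and 21.4 FPKM in KIAA1429 RIP, and ZNF561 had 13.5 and 11.1 FPKM in IgG RIP, compared with 14.1 and 18.0 FPKM in KIAA1429 RIP. At lower levels the medians were 0.044 for 39 members from 1 to 2 FPKM, -0.24 for 55 members from 2 to 5 FPKM and -0.15 for 26 members from 5 to 10 FPKM, against -0.11, -0.011 and -0.0029 over all gene totals at these levels. The lowest group turned to -0.14 without KIAA1429 RIP replicate 1 and to -0.042 and -0.056 without either replicate 2 (IgG RIP and KIAA1429 RIP). The middle groups turned to 0.11 and 0.14 without IgG RIP replicate 1, and that from 5 to 10 FPKM also to 0.20 without KIAA1429 RIP replicate 2.

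The 29 members without the linker motif differed from the rest in composition and level. Their most abundant listed transcripts had a median GC content of 60.7%, against 42.5% in the 136 members with the motif, and a median length of 2050 bases against 3748 bases. The 26 of them that were tested had a median level of 4.97 FPKM, against 3.19 FPKM in the 114 tested members with the motif. Their median log2 ratio was -0.39, with 8 below (30.8%, against 15.2% of all gene totals) and 3 above (11.5%, against 16.6%), and it ran from -0.36 to -0.11 when each library was left out. For the members with the motif the median was -0.082, with 21 below (18.4%) and 12 above (10.5%), and it turned to 0.18 without IgG RIP replicate 1 and to 0.084 without KIAA1429 RIP replicate 2. The difference between these groups of members was not tested. They are also not independent of level and place, since 7 of the 22 members with at least 10 FPKM lack the motif and 18 of the 26 lie in the cluster at the end of the long arm.

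Across 136 tested members with a matched transcript, Spearman's rho between GC content and level was 0.33, and between GC content and the limma log2 fold change it was -0.097. The number of listed transcripts had a rho of 0.54 with the level over 142 members, where a total over more transcripts has more terms. The linker sites per kb of coding sequence had a rho of 0.20 with the limma log2 fold change over 140 members, and the number of fingers, which ranged from 1 to 32 with a median of 12, a rho of -0.086. These values describe the 4 libraries, whose FPKM they all share.

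The letters GGAC are the core of the sequence at which m6A is usually written. They occurred on the transcript strand at a median of 2.69 per kb in the most abundant listed transcripts of 136 tested members, against 3.61 per kb in 10927 other gene totals, and were present in 100% of these members and 98.5% of the others. Across the members, the density had a Spearman rho of -0.12 with the limma log2 fold change, and across the other gene totals -0.086. As examples, the earliest GGAC with 30 bases in a coding exon is printed in capitals for 3 members on GRCh37: ZNF460 (chr19:57795965-57795994, plus strand), which has 6 in its 1689 coding bases, ZNF180 (chr19:44983581-44983610, minus strand), which has 6 in 2079, and ZNF568 (chr19:37440724-37440753, plus strand), which has 1 in 1935. A match describes the letters and not a modified site.
ZNF460: agtgggggcagttGGACgtgacccagaggg
ZNF180: aaattgtgactgtGGACttcacacgggagg
ZNF568: gtgtaatcagtgtGGACaagacttcagtca

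When a gap of more than 1 Mb was taken to separate clusters, the members formed 17 clusters on chromosome 19, of which 8 held at least 5 members and 147 members in all. The median log2 ratio was below 0 in 5 of these 8 clusters and above 0 in the other 3, at 0.27, 0.52 and 0.084 in clusters of 6, 5 and 12 members, each of which turned below 0 when some library was left out (to -0.65 without KIAA1429 RIP replicate 1, to -0.43 without KIAA1429 RIP replicate 2 and to -0.29 without IgG RIP replicate 2). Of the 5 below 0, 3 also turned, namely those with ZNF146 and with ZNF180, described below, and the short-arm cluster with ZNF121 (-0.046, which became 0.069 without IgG RIP replicate 2 and 0.13 without KIAA1429 RIP replicate 2). The largest, at the end of the long arm (chr19:55988013-58992597), held 50 members, among them ZNF580, ZNF581, ZNF787, ZNF460, ZNF772 and ZNF579. Its members summed to 416 and 432 FPKM in IgG RIP against 354 and 361 FPKM in KIAA1429 RIP, without overlap between the groups. Over its 48 tested members the median log2 ratio was -0.21, with 15 below (31.2%, against 15.2% of all gene totals) and 5 above (10.4%, against 16.6%), and it ran from -0.31 to -0.038 when each library was left out. The cluster with ZNF146 and ZNF568 (chr19:36673196-38270230) held 22 members and summed to 141 and 82.4 FPKM in IgG RIP against 120 and 90.4 FPKM in KIAA1429 RIP. Here the IgG RIP sums enclosed the KIAA1429 RIP sums, and the median log2 ratio of -0.22 turned to 0.30 without IgG RIP replicate 1 and to 0.086 without KIAA1429 RIP replicate 2. The cluster with ZNF180 and ZNF428 (chr19:44029649-45579846) held 24 members and summed to 97.6 and 90.0 FPKM in IgG RIP, compared with 93.5 and 92.0 FPKM in KIAA1429 RIP. The sums of this cluster did not separate the groups, and its median log2 ratio of -0.078 turned to 0.051 without KIAA1429 RIP replicate 1. On the short arm, 35 of 46 members were tested and had a median log2 ratio of -0.016 (4 above, 11.4%, and 3 below, 8.57%), and on the long arm 107 of 121 had a median of -0.16 (11 above, 10.3%, and 26 below, 24.3%). The long-arm median turned to 0.18 without IgG RIP replicate 1. Without KIAA1429 RIP replicate 1 the short-arm median was -0.27 and the long-arm median -0.20, so the order of the arms turned, as it did without IgG RIP replicate 1, where the short-arm median was -0.046. Without IgG RIP replicate 2 the short-arm median was -0.11.

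Members with a described role were also read singly. ZNF91, which represses the SVA retrotransposons of primates, had 4.93 and 7.27 FPKM in IgG RIP against 4.58 and 4.89 FPKM in KIAA1429 RIP, so that its groups did not overlap, with a limma log2 fold change of -0.29 (SE 0.44, adjusted p 0.998) that shrank to -0.048 without IgG RIP replicate 2. Its protein-coding transcript, ENST00000300619, did overlap, at 4.93 and 4.41 FPKM in IgG RIP against 4.58 and 4.89 FPKM in KIAA1429 RIP, and ENST00000593341, a processed transcript, was above 0 only in IgG RIP replicate 2, at 2.86 FPKM. ZNF274, which brings SETDB1 to the zinc finger genes themselves, had 8.91 and 3.66 FPKM in IgG RIP against 9.01 and 5.67 FPKM in KIAA1429 RIP. ZNF473, a component of the machinery that cuts histone pre-mRNA, had 6.04 and 3.93 FPKM in IgG RIP, compared with 9.24 and 1.41 FPKM in KIAA1429 RIP. The replicates of ZNF274 and ZNF473 differed by more than their group means. ZNF350, a partner of BRCA1, had 5.17 and 2.01 FPKM in IgG RIP against 2.58 and 3.33 FPKM in KIAA1429 RIP. ZNF382, a repressor silenced by methylation in several cancers, had 9.89 and 2.20 FPKM in IgG RIP against 5.88 and 2.74 FPKM in KIAA1429 RIP. ZNF420, an inhibitor of p53, was listed at 0 and at 2.31 FPKM in IgG RIP and had 2.26 and 3.84 FPKM in KIAA1429 RIP. In these 3 genes, as in the imprinted gene ZNF331 with 2.37 and 0.810 FPKM in IgG RIP, compared with 1.30 and 1.70 FPKM in KIAA1429 RIP, the groups overlapped.

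In 9 members a transcript with both KIAA1429 RIP values above the IgG RIP values stood beside another with both below, counting transcripts whose mean reached 1 FPKM. These were 16.98% of the 53 members with more than 1 such transcript, against 15.3% of the 5754 gene names of that kind. In ZNF121, ENST00000586602 had 24.3 and 22.1 FPKM in IgG RIP against 20.5 and 16.9 FPKM in KIAA1429 RIP, while ENST00000320451 had 8.48 and 4.08 FPKM in IgG RIP against 10.8 and 9.04 FPKM in KIAA1429 RIP. In ZNF562, ENST00000590155 had 6.38 and 8.92 FPKM in IgG RIP, compared with 0.858 and 0.438 FPKM in KIAA1429 RIP, while ENST00000453372 had 3.73 and 0.499 FPKM in IgG RIP against 6.15 and 3.87 FPKM in KIAA1429 RIP. The totals of both genes overlapped between the groups. The tool that divided fragments among transcripts is not given in the sources used here, and its part in these differences was not tested. Of the members' transcripts, 73 (18.8%) were listed at 0 in both IgG RIP libraries and 64 (16.5%) in both KIAA1429 RIP libraries, against 13.8% and 14.0% of all listed transcripts. The higher group mean of every listed transcript was at least 0.5001 FPKM. A transcript at 0 in both libraries of a group is therefore listed only through the other group.

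The corepressors through which KRAB zinc finger proteins act were more abundant than most of the zinc finger genes. Of 36 symbols in this list 34 were listed and 33 tested, with a median level of 25.9 FPKM, against 3.52 FPKM for the tested members. By limma 0 were called (lowest adjusted p 0.998) and 0 had an unadjusted p under 0.05, while 2 lay above (6.06%, against 16.6% of all gene totals) and 5 below (15.2%, the same share as over all gene totals), and their median log2 ratio was -0.063, which turned to 0.27 without IgG RIP replicate 1. TRIM28, itself on chromosome 19, had 67.2 and 47.4 FPKM in IgG RIP against 60.7 and 53.3 FPKM in KIAA1429 RIP. SETDB1 had 5.95 and 7.71 FPKM in IgG RIP, compared with 5.37 and 11.8 FPKM in KIAA1429 RIP. The groups overlapped in both genes, and TRIM28 at about 57.1 FPKM on average stood above the highest member, ZNF580, at 31.6 FPKM.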

How the data were processed

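In 4 RIP-seq libraries of HCCLM3 cells (2 of KIAA1429 RIP, 2 of IgG RIP, grouped by their labels), the authors sequenced randomly primed, fragmented poly(A) RNA of the precipitates. The methods of the study name HISAT2 and GRCh37/hg19 for alignment, whereas the submitters' processing notes name Bowtie2 2.1.0. The tool that estimated FPKM, the strand setting and the annotation release are not given in the sources used here. The authors deposited FPKM per transcript, 1 file per library, and the higher group mean of every listed transcript was at least 0.5001 FPKM. No step of which the low values are multiples was found, so reads could not be recovered and depth is unknown.

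FPKM was summed per gene name, and gene totals with a mean of at least 1 FPKM entered limma 3.58.1 (R 4.3.3, eBayes with trend) on the scale log2(FPKM + 1). The script was first run on simulated data as a check of the code. Recovery of raised genes was required there only at a spread smaller than that of these libraries. The check therefore does not give the power of the test in these data. The count test of the study needs reads and was not run. Ratios of group means carry no pseudocount. A value of exactly 0 is described as listed at 0. Other values were computed in Python 3.11.15 with numpy 2.4.6 and pandas 2.3.3, and figures drawn with matplotlib 3.10.9. Sequences came from GENCODE v44lift37, to which 33938 of the 34975 listed transcripts were matched by identifier. The longest readable coding sequence of a gene was used, and none where it was under 80% of the longest annotated (ZNF274). ZNF542P had no coding sequence read.

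The members and lists were chosen with earlier results of these data known. Named genes were the 10 members with the highest mean, the 5 with the largest limma log2 fold change to each side among those whose groups do not overlap, members with a described role (ZNF93 was not listed), and TRIM28 and SETDB1. Others are marked where they are named. Alternatives were pseudocounts of 0.1 and 0.01 (1 for ratios), no filter and a filter at 5 FPKM, median scaling, quantile normalization, a replicate block, limma without trend, the most abundant transcript, protein_coding transcripts only, and each library left out. Added after seeing the data were members with under 1% of shared 50-base words and members above 0 in all libraries. The groups by level and by presence of the linker motif were not planned beforehand either.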

Additional observations from a re-analysis of the deposited data

How the results depend on the processing

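The counts of members called higher and lower were 0 and 0 in each alternative run. The members at least 2-fold higher (12) numbered 6 with a pseudocount of 1, 23 without a filter and 0 with a filter at 5 FPKM, and from 10 to 32 with a library left out. Those at least 2-fold lower (12) numbered 6 with a pseudocount of 1, 18 without a filter, 2 with a filter at 5 FPKM and 18 with the most abundant transcript (12 for higher), and from 17 to 27 with a library left out. The stricter filter tests fewer members (48), and a pseudocount shrinks the ratios of low genes by construction. The members' median log2 ratio (-0.146) ran from -0.239 to 0.111 with a library left out and stayed below 0 in the other alternatives, from -0.0424 without a filter to -0.174 over members above 0 in all libraries. With under 1% of shared words it was -0.0608. The log2 ratio of the summed FPKM (-0.117) ran from -0.206 to -0.0226 with a library left out.

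With the replicate number as a block, limma called 12 gene totals higher and 1 lower of all 11361, where the fit without the block called 0, and 0 of these were members. With it 7 members had a ratio of 2-fold or more to the higher side and 6 to the lower, the median was -0.115, 7 had an unadjusted p under 0.05, and the lowest adjusted p of a member from limma was 0.326. The labels say nothing of what a number shares, and the correlation of same-numbered libraries' deviations was 0.187 over all gene totals and 0.0204 over the members.

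Of 29 named genes, 16 kept the direction of their limma log2 fold change in the alternatives run for single genes, but in 14 of these the groups do not overlap, so that leaving out a library could not turn them. With a library left out, the others ran from -0.48 to 0.101 (ZNF580), -0.192 to 0.162 (ZNF121), -0.882 to 0.368 (ZNF581), -0.399 to 0.316 (ZNF428), -0.556 to 0.251 (ZNF772), -0.373 to 0.175 (ZNF562), -0.277 to 0.81 (ZNF274), -0.437 to 0.46 (ZNF331), -0.648 to 0.389 (ZNF350), -1.1 to 0.663 (ZNF382), -1.29 to 0.797 (ZNF473), -0.237 to 0.259 (TRIM28) and -0.29 to 0.722 (SETDB1). TRIM28 was also at -0.00287 after median scaling and -0.0775 after quantile normalization, and the cause was not tested. A library alone in its group is assumed to vary like the other group. How much of the spread at low FPKM is counting error was not tested, since depth is unknown.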

Other observations

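Chromosome 19 zinc finger genes under other names (with the prefixes ZFP, ZSCAN, ZIM, ZIK and ZBTB, and PEG3) numbered 10, of which 7 were tested. Their median log2 ratio of group means was 0.38, it turned to -0.37 without KIAA1429 RIP replicate 1, and 1 lay above and 1 below (14.3% each, where the shares over all gene totals were 16.6% above and 15.2% below). A strict pattern for the KRAB A box matched 114 of the 165 members with a coding sequence read, but it missed known KRAB genes such as ZNF224, so the groups it gives are not those with and without the domain. Members that matched had a median log2 ratio of -0.16 (18 below, 18.6%, and 11 above, 11.3%, of 97 tested), which turned to 0.20 without IgG RIP replicate 1. Members that did not match had -0.17 (11 below, 25.6%, and 4 above, 9.30%, of 43 tested), which ran from -0.20 to -0.066 when each library was left out.

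In the corepressor list, CHD4 and GATAD2A had both KIAA1429 RIP values below the IgG RIP values and are named after their values were seen. CHD4, the helicase of the NuRD complex, had 73.5 and 62.6 FPKM in IgG RIP against 51.1 and 44.7 FPKM in KIAA1429 RIP. GATAD2A, another NuRD subunit, had 50.9 and 40.3 FPKM in IgG RIP against 34.7 and 23.9 FPKM in KIAA1429 RIP. The 2 genes above, also named after their values were seen, were DNMT3A and SUV39H2, and neither passed the adjusted threshold of limma.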
